A study of Mus musculus with 6 samples.

Results

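The genes described here encode 10 enzymes that remove superoxide and peroxides: the superoxide dismutases Sod1 and Sod2, catalase (Cat), the peroxiredoxins Prdx1, Prdx2, Prdx3, Prdx5 and Prdx6, and the glutathione peroxidases Gpx1 and Gpx4. They were chosen by name, with earlier results of these data known. A chromatin region belongs to them where the authors' annotation names the gene as the nearest. On chromosomes 1 to 19, X and Y this gave 19 of 41527 regions, spread over 9 of the 10 genes.

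Superoxide arises when electrons leak from the respiratory chain or are passed to oxygen by NADPH oxidases. Superoxide dismutases turn it into hydrogen peroxide, which catalase splits to water and oxygen and which peroxiredoxins and glutathione peroxidases reduce with electrons from thioredoxin and glutathione. Neurons use much oxygen and hold many unsaturated lipids, and depend on these enzymes to keep peroxides low.

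The protein mapped was TERT, the catalytic subunit of telomerase, in primary neurons taken from cortex and hippocampus of C57BL/6 mouse embryos at embryonic day 15 to 18. The assay was CUT&Tag, in which an antibody brings a transposase to the bound protein so that nearby DNA is cut and tagged. A total of 3 samples had vehicle (DMSO; a label field calls them untreated) and 3 had 2 µM BIBR1532, an inhibitor of telomerase, for 24 h. The labels do not say whether these were separate cultures, no sample without the TERT antibody is among them, and the cultures were not sorted. The libraries of each condition were pooled by the authors, who deposited 3 lists: regions common to both pools, regions higher in the BIBR1532 pool and regions higher in the vehicle pool. Which list belongs to which condition was read from the order of the conditions in the list names, so the direction is likely and not stated outright. Each condition is therefore a single pooled measurement, with no value per sample, no replicate error and an unknown depth. Every comparison of conditions below describes these lists, and no test was possible. A region lists where signal was called, not how much of the protein was bound.

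Most of the detoxifying enzymes, though not Sod1, Prdx2 or Prdx5, had a common region within 1 kb of a start site. At 4 of them (Sod2, Prdx1, Cat and Gpx4) a common region spanned the start. The share of all genes with a region across the start was not computed. Common regions were named for 7 of the 10 genes (Sod2, Prdx1, Prdx3, Prdx6, Cat, Gpx1 and Gpx4), where 23.9% of 21887 protein-coding genes had one. In all 7 the centre of a common region lay within 1 kb of the start site, which held for 19.2% of protein-coding genes. Under the authors' narrower promoter class, promoter-TSS, 4 genes had a common region (Sod2, Prdx1, Prdx6 and Gpx4), against 14.2% of protein-coding genes. Cat, Prdx3 and Gpx1 made the difference, since their common regions were filed under an exon or an intron although they began within 1 kb of the start. Of the members' 19 regions 9 were common (47.4%), against 16.4% of all regions. The other 10 were condition-specific, 5 in each list. Among those condition-specific regions, 50% were BIBR1532 regions, near the 46.5% over the whole series.

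**Figure D1:**
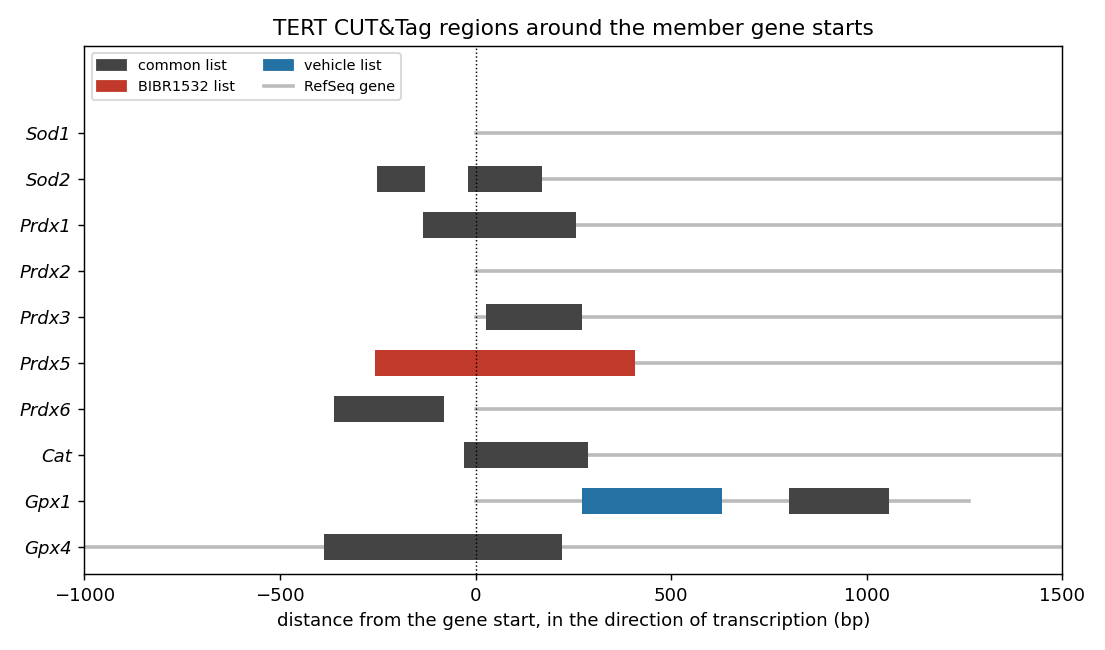
Regions within 1000 bp before and 1500 bp after the start of each gene, drawn to scale and in the direction of transcription (x axis, bp from the start site; one row per gene; bars are regions coloured by list; grey lines are RefSeq genes). Common regions are centred within 1 kb of the start of 7 genes, the one of Gpx1 being in its last exon. Prdx5 has a BIBR1532 region across its start, and Sod1 and Prdx2 have no region in this window.

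The superoxide dismutases differed in this respect. Sod2, the manganese enzyme of the mitochondrial matrix, had 3 common regions and no condition-specific region. The first, chr17:13007587-13007709 on mm10, was 123 bp wide, ended 130 bp before the start site and had an authors' score of 0.0870. The second, chr17:13007820-13008009, was 190 bp wide, spanned the start and scored 0.189. These lay 110 bp apart, so the promoter was marked on both sides of a short gap. The third was 210 bp wide, lay in exon 5 of 5 with its centre 7289 bp from the start, and scored 0.0905.

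Sod1, the copper and zinc enzyme of the cytosol, had no region at its own start. The single region named for it was a vehicle region at chr16:90229306-90229425, 120 bp wide, with its centre 8603 bp from the Sod1 start. It lay 2973 bp past the end of Sod1, in exon 20 of 20 of the neighbouring gene Scaf4, and was given to Sod1 because that start is the nearest. The nearest common region to the Sod1 start was 63967 bp away, at the promoter of Scaf4. Both dismutase promoters are GC-rich, at 66.4% for Sod1 and 63.6% for Sod2 over the 250 bases before the start. The median over 32851 RefSeq promoter windows was 52.4%.

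The upstream sequences of both dismutases are shown because only the Sod2 promoter held a deposited region. They are the 250 bases before the start from RefSeq on the mm10 assembly, both on the plus strand, with capitals for bases inside a common region. The Sod1 stretch is chr16:90220512-90220761 and the Sod2 stretch chr17:13007589-13007838.
Sod2: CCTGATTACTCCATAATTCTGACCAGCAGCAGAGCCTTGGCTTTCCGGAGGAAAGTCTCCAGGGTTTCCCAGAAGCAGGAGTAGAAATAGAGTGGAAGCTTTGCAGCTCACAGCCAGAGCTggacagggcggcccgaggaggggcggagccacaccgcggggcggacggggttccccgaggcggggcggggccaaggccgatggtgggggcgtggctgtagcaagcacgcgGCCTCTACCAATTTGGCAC
Sod1: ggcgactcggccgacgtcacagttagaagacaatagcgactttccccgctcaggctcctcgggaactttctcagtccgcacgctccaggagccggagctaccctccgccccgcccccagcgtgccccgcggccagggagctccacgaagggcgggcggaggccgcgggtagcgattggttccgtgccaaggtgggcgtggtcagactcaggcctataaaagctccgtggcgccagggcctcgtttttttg
In Sod2 140 of the 250 bases lay inside a common region. The lower-case stretch between the capitals held all 4 matches to the GC box (GGGCGG, both strands), and the capitals held the single match to the CCAAT box (CCAAT), 12 bases before the start. Sod1 also had 4 GC box matches and 1 CCAAT match. It further had 1 match to the antioxidant response element core (TGACNNNGC), the letters recognised by the oxidative stress factor Nrf2, and 1 to the TATA box (TATAAA).

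Catalase, the peroxisomal enzyme that decomposes hydrogen peroxide, had 1 region, and it was common. It spanned the start site at chr2:103484865-103485183, was 319 bp wide and scored 0.242, the highest score among the members' common regions. A higher score in this list cannot be read as more TERT. The authors' annotation placed it in exon 1 of 13, with its centre 129 bp from the start. Most of it lay downstream, and it reached 30 bases into the upstream sequence. That sequence is shown to mark the upstream edge of the region (chr2:103485154-103485403, minus strand, capitals inside the common region).
Cat: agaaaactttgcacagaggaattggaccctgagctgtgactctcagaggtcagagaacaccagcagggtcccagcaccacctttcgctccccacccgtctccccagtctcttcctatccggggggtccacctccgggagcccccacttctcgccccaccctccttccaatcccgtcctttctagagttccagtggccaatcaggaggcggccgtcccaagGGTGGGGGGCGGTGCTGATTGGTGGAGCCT
The capitals held the single GC box match and 1 of the 4 CCAAT matches.

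The peroxiredoxins, thiol enzymes that reduce peroxides, fell into different patterns. Prdx1, a cytosolic member, had a common region across its start at chr4:116685464-116685857, 394 bp wide with a score of 0.173. A BIBR1532 region of 614 bp lay upstream, at chr4:116679927-116680540. Its centre was 5366 bp before the start, it was intergenic, its detailed annotation names a SINE repeat of the B2 family, and it scored 2.01. Prdx3, a mitochondrial member, had a common region that began 26 bp after the start, at chr19:60874265-60874512, 248 bp wide with a score of 0.0970. It was filed under intron 1 of 6 and, in the detailed annotation, under a CpG island, the only one of the 9 common regions so filed (7.68% of all common regions were). Prdx3 also had a vehicle region of 414 bp in intron 4 of 6, centred 5067 bp from the start, with a score of 5.19.

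Prdx5, found in mitochondria, peroxisomes and the cytosol, was the only member whose start lay in a condition-specific region. This BIBR1532 region, chr19:6909698-6910362, was 665 bp wide, the widest of the members' regions, and scored 2.22. Of protein-coding genes 6.89% had a BIBR1532 region of the promoter class, and 11.1% had one centred within 1 kb of the start. It ran from 256 bp before the Prdx5 start to 408 bp after it, where the start of Trmt112 lies on the opposite strand. Trmt112 encodes a partner protein of several methyltransferases. The region therefore spans the Prdx5 start and reaches the Trmt112 start with its edge, and cannot be given to Prdx5 alone. No common or vehicle region lay within 10 kb of the Prdx5 start: the nearest common region was 11361 bp and the nearest vehicle region 12442 bp upstream.

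Prdx6, which reduces phospholipid hydroperoxides, had 4 regions, more than any other member. Its common region was 282 bp wide and ended 80 bp before the start, at chr1:161251290-161251571, with a score of 0.0158. Near its far end a BIBR1532 region of 145 bp (score 3.07, exon 6 of 6) and a vehicle region of 135 bp (score 1.86) lay 92 bp apart, with centres 9460 and 9692 bp from the start. So neighbouring stretches of the same gene end were listed in opposite directions. The other BIBR1532 region was intergenic, 23187 bp upstream, and scored 6.34. Prdx2, an abundant cytosolic member, had no region in any list. The nearest to its start was a BIBR1532 region 3787 bp upstream, in intron 1 of 7 of Rnaseh2a, which scored 12.2. The nearest common region was 10065 bp away, at the promoter of Junb.

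The upstream sequences of Prdx1 and Prdx5 are shown because they held regions of different lists. The Prdx1 stretch is chr4:116685349-116685598 on the plus strand with capitals inside the common region, and the Prdx5 stretch is chr19:6910107-6910356 on the minus strand with capitals inside the BIBR1532 region.
Prdx1: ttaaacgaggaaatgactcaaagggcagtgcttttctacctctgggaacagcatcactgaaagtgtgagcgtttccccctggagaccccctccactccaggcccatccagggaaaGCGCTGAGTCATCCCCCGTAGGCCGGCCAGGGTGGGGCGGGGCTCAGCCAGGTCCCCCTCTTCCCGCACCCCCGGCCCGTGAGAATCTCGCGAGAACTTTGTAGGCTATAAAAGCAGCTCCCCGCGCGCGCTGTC
Prdx5: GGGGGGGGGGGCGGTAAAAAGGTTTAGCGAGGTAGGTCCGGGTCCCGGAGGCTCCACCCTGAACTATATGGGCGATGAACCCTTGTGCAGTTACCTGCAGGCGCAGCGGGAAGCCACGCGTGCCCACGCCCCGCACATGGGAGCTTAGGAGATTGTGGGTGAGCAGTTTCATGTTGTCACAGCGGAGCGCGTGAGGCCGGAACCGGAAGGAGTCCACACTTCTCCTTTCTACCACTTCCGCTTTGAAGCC
In Prdx1 135 of the 250 bases were in the common region, with the antioxidant response element core match 133 bases before the start, the GC box match and the TATA box match all inside it. In Prdx5 all 250 bases were in the BIBR1532 region, and the only match among the motifs searched was 1 GC box, 242 bases before the start.

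Among the glutathione peroxidases, selenium enzymes that use glutathione, Gpx4 had a common region over a start site and Gpx1 had regions inside the gene. Gpx4, which reduces lipid hydroperoxides in membranes, has 4 start sites in the RefSeq table. The common region at chr10:80053178-80053785 was 608 bp wide, the widest common region among the members, and scored 0.0724. It ran from 387 bp before to 220 bp after the start that the authors' annotation used for it. The earliest RefSeq start of Gpx4 had no region, its nearest common one being 6315 bp away. A vehicle region of 125 bp and a BIBR1532 region of 176 bp were also named for Gpx4. They lay 6853 and 7619 bp past its end, in intron 17 of 31 and exon 13 of 15 of transcripts of Sbno2, and had 641 bp between them. Gpx1, the cytosolic and mitochondrial peroxidase, is the shortest gene of the group at 1263 bp. A vehicle region of 360 bp lay in exon 1 of 2 at chr9:108339352-108339711 with a score of 2.14, and a common region of 259 bp lay in exon 2 of 2 at chr9:108339880-108340138 with a score of 0.0789. They were separated by 168 bp, and neither reached the start site. The vehicle region was centred 451 bp from it, and 11.6% of protein-coding genes had a vehicle region within 1 kb.

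The Gpx4 promoter is shown as a case in which all 250 upstream bases were inside a common region (chr10:80053315-80053564, plus strand).
Gpx4: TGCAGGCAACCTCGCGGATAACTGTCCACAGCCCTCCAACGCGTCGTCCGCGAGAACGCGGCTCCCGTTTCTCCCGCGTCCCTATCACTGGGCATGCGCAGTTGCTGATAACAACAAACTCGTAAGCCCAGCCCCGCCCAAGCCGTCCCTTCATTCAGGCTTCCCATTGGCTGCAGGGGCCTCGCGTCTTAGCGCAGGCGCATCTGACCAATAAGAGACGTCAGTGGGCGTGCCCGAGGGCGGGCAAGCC
It held 2 GC box and 2 CCAAT matches before the start and 24 CpG dinucleotides, where the median window had 6. The earliest Gpx4 start, with no region, had 2. The 250 bases before the Gpx1 start had a GC content of 42%, the lowest of the members' windows, and 7 CpG dinucleotides. Windows rich in CpG could also hold no region. The Sod1 window had 26 CpG dinucleotides, and the Prdx2 window had 23 and a GC content of 69.2%.

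**Figure D2:**
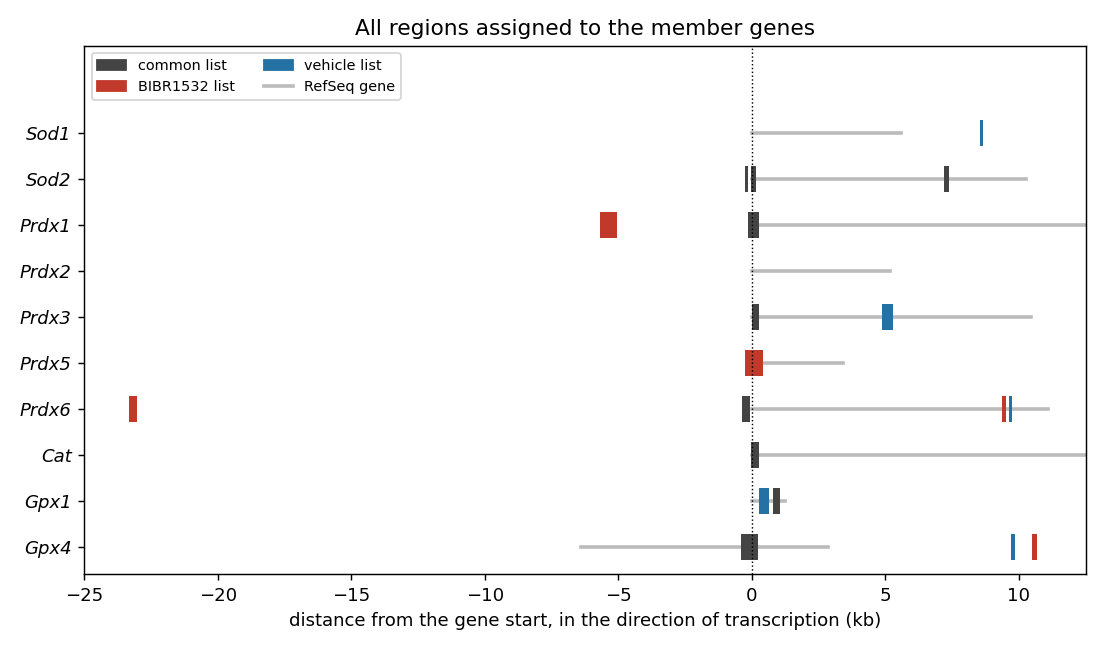
All 19 regions by distance from the gene start in kb (x axis, direction of transcription), with one row per gene, bars for regions coloured by list and grey lines for RefSeq genes; Prdx1 and Cat run past the right edge. Common regions are centred within 1 kb of the starts, apart from the Sod2 region in its last exon. That of Gpx1, a short gene, is also in the last exon. Of the 10 condition-specific regions 8 are centred more than 5 kb away. The share over the series at that distance was not computed.

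Away from the starts the condition-specific regions were scattered. Of the 10, 2 had their centre within 1 kb of the start (Prdx5 and Gpx1), and 16.7% of condition-specific regions in the series did. The promoter class held 1 of them, against 10.2%. For the common regions the same counts were 8 of 9 within 1 kb, against 72.7%, and 5 of 9 in the promoter class, against 51.9%. The members' regions thus lay near starts about as often as other regions of the same kind did. The vehicle region named for Sod1 and both condition-specific regions named for Gpx4 lay past the gene, inside another one, and the regions upstream of Prdx1 and Prdx6 lay before the gene. BIBR1532 regions were named for 4 members (Prdx1, Prdx5, Prdx6 and Gpx4), and 34.5% of protein-coding genes had one. Vehicle regions were named for 5 (Sod1, Prdx3, Prdx6, Gpx1 and Gpx4), against 37.5%. The members are rather short genes, with a median length of 9778 bp against 17169 bp over protein-coding genes. They had a median of 2 regions against 1, and a mean of 1.9 against 1.58.

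None of the members' condition-specific regions ranked high in its list. The score is the authors' value and was used only to rank regions within a list. Common scores ran from 0.00191 to 0.913, below the cutoff of 1.0 in the list names. The lowest scores of the BIBR1532 and vehicle lists were 1.05 and 1.06, above it. The score thus follows the split into lists and cannot be read as the amount of TERT. In the BIBR1532 list 7563 of 16153 regions share the score of 6.34, and in the vehicle list 9312 of 18562 share 5.19. Of the members' 10 regions 5 sat at these repeated scores (those named for Sod1, Prdx3 and Gpx4 and the upstream one of Prdx6), 5 below them and 0 above. Over both lists 48.6% of regions were at the repeated score, 18.2% below and 33.2% above. The condition-specific regions nearest a start had low ranks: the Prdx5 region was at percentile 12.3 of the BIBR1532 list and the Gpx1 region at percentile 7.40 of the vehicle list. The 9 common regions ranged from percentile 9.31 (Prdx6) to 77.5 (Cat) of their list. The median width was 259 bp for the members' common regions against 257 bp for that list, 288 against 247 bp for the 5 BIBR1532 regions and 135 against 244 bp for the 5 vehicle regions.

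**Figure D3:**
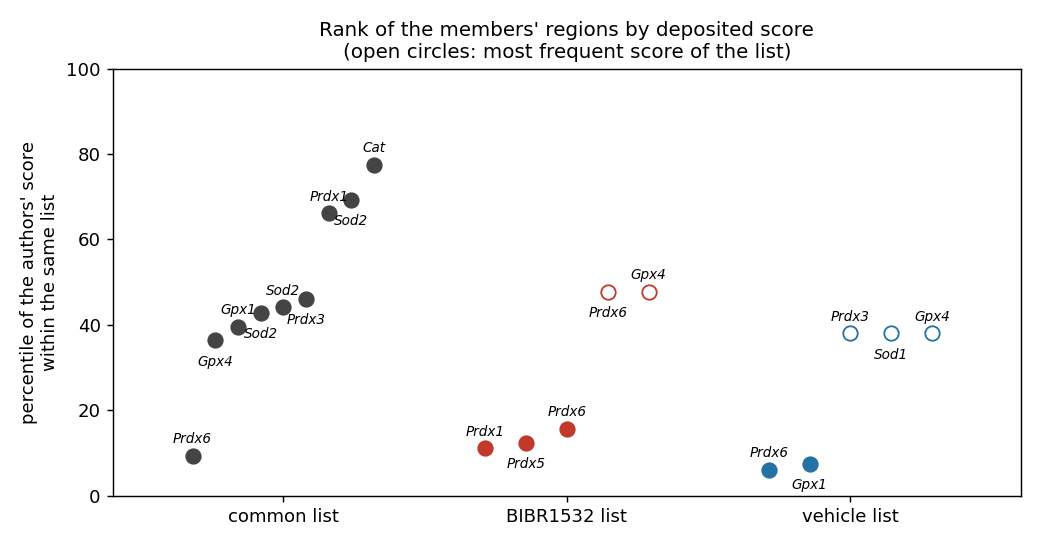
Percentile of the authors' score within its own list (y axis) for each of the 19 regions, in one column per list, with ties counted in part; points are regions named by gene, and open circles mark the most frequent score. The condition-specific regions all lie below percentile 50, and Cat, at 77.5, has the highest rank by score among the members' common regions.

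Promoter motifs were present at members with and without a common region. RefSeq promoter windows of 300 bases (250 before and 50 after a start) were matched for 9 of the 10 genes. Prdx6 had no window and was not searched. Matches were searched on both strands, and matches may overlap. A GC box was found for 9 of 9 members with a window, and 35.7% of all windows held one. The Prdx2 and Gpx1 matches were at the start itself, at positions -2 and 8 from it. The CCAAT box was found for 4 (Sod1, Sod2, Cat and Gpx4), against 37.4% of windows. The TATA box was found for 3 (Sod1, Prdx1 and Prdx3, at 37, 29 and 239 bases before the start), against 13.6%. The antioxidant response element core was found for Sod1 and Prdx1, against 12.4%. The E-box (CACGTG), the letters bound by Myc and related factors, was found for 0 of 9, against 7.15%. Sod1 and Prdx1 thus share a core match while only Prdx1 has a common region at its start. A gene with several windows counted once here if any of them held a match, as for Gpx4 with 4 starts. The percents are over single windows, so the 2 are not fully alike. A match in these letters is not a bound site.

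Among genes of thioredoxin recycling, some of which hand electrons to the peroxiredoxins, several had common promoter regions as well. In the thioredoxin group 4 of 7 genes had one, against 14.2% of protein-coding genes. They were Txn1, the cytosolic thioredoxin; Txn2, the mitochondrial one; Txnrd1, the reductase that recycles thioredoxin; and Srxn1, which repairs over-oxidised peroxiredoxins. With a region centre within 1 kb in place of the promoter class the count was 5 of 7, against 19.2% of protein-coding genes. The Txn1 region was 633 bp wide and centred 2 bp from the start, with a score of 0.287. Among 9 genes of glutathione synthesis and recycling Glrx5, a mitochondrial glutaredoxin of iron-sulphur cluster assembly, had a common promoter region, and among 5 genes of metal and selenium supply Ccs did. Ccs delivers copper to Sod1. The family relatives (0 of 8), the regulators and their targets (0 of 12) and the NADPH oxidase genes and partners that make superoxide (0 of 6) had none. Within 1 kb of a start the glutathione group had 3 of 9, the regulators 4 of 12 and metal and selenium supply 1 of 5, and the relatives and the superoxide sources still had 0. Over all 47 other pathway genes 6 had a common promoter region (12.8%), near the share of all genes, and 13 had one within 1 kb (27.7%, against 19.2%).

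**Figure D4:**
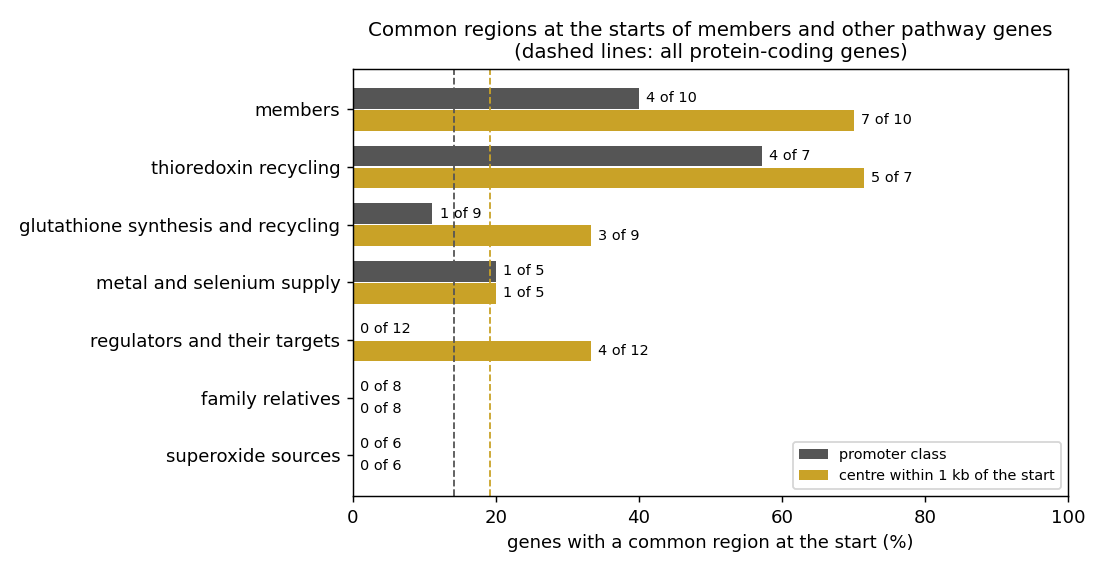
Percent of genes in each group (x axis) with a common region of the promoter class (grey bars) or with its centre within 1 kb of the start (yellow bars), with counts at the bars and dashed lines at 14.2% and 19.2% for all protein-coding genes. The members, the thioredoxin group and metal and selenium supply (1 of 5 genes) reach past both lines. The glutathione group and the regulators pass only the line for the 1 kb rule. The family relatives and superoxide sources have no bar.

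Condition-specific promoter regions in the pathway were BIBR1532 regions at Txn2, Txnrd1, Ccs and Park7, and vehicle regions at Gpx3 and Gss. Gpx3 encodes the secreted glutathione peroxidase and Gss glutathione synthetase. That is 4 of 47 genes, against 6.89% of protein-coding genes, and 2 of 47, against 7.37%. At Ccs 2 BIBR1532 regions (scores 10.9 and 8.72) flanked a common region of 176 bp (score 0.698) with no base between them. Together they formed an unbroken stretch from chr19:4838723-4838964 over chr19:4838965-4839140 to chr19:4839141-4839376. At Txn2 a BIBR1532 region of 264 bp lay in the same way between 2 common regions of 380 and 189 bp. A promoter can therefore be both common and condition-specific in these lists, as parts of a continuous stretch. Such contact with a common region was seen for 3 of the 7 condition-specific promoter regions of these genes, against 10.6% of all condition-specific promoter regions. It was seen for 0 of the members' 10 condition-specific regions, of which 1 was of the promoter class, against 1.92% of all condition-specific regions.

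The lists hold no expression, so the labelled cell type could be described only by regions at marker genes. A common promoter region was present at 2 of 11 neuronal markers (Snap25 and Syt1) and at 0 of 19 markers of astrocytes, oligodendrocyte lineage, microglia, endothelium and progenitors, against 14.2% of protein-coding genes. Condition-specific promoter regions were present at 4 of the 11 (Rbfox3 in the BIBR1532 list, and Tubb3, Stmn2 and Neurod6 in the vehicle list) and at 4 of the 19 (Nes in the BIBR1532 list, and Gfap, Mbp and Mki67 in the vehicle list). Of protein-coding genes 6.89% had a BIBR1532 region of the promoter class and 7.37% a vehicle one. The share with either was not computed. In the BIBR1532 list, regions of any class were named for 5 of 6 neuron markers, 1 of 2 excitatory and 1 of 3 inhibitory ones. It also held them for 3 of 4 astrocyte, 2 of 4 oligodendrocyte lineage and 3 of 4 microglial markers. Endothelial and progenitor markers had them at 1 of 3 and 4 of 4. Of protein-coding genes 34.5% had one in this list. In the vehicle list the neuron, excitatory and inhibitory counts were 6 of 6, 1 of 2 and 0 of 3. Astrocytes and the oligodendrocyte lineage had 3 of 4 each, microglia 1 of 4, endothelium 1 of 3 and progenitors 2 of 4. The share of protein-coding genes was 37.5%. These counts do not identify the cell type.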

How the data were processed

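Primary mouse neurons were profiled by TERT CUT&Tag in 6 samples, 3 per condition. Per the submitters' processing notes, CASAVA 1.8, Bowtie2, Picard and MACS2 2.1.2 were used on mm10, with no role or order given. Per the file headers, the regions came from a folder named bdgdiff, with the libraries of each condition combined and a cutoff of 1.0 in the list names, and were annotated with annotatePeaks.pl. Each region carries a score deposited by the authors, whose formula and scaling are not given in the sources used here. It was only ranked within its list. Both condition-specific lists were decoded from UTF-7.

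Regions were assigned by the deposited gene name. Protein-coding genes, gene spans and promoter windows came from RefSeq tables of the same build, in which all 57 symbols were found. Motif search was tested on simulated data. The members and gene lists were chosen with earlier results of these data known. All members are named. Other genes are named by their promoter regions, as neighbours of a member start or as owners of the sequence a region lies in, some of them chosen after their values were seen. With pooled libraries, no test across samples was made. Alternatives changed the score, width, distance and promoter rules. Python 3.11.15, pandas 2.3.3, numpy 2.4.6 and matplotlib 3.10.9 were used.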

Additional observations from a re-analysis of the deposited data

How the results depend on the processing

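Counts this small moved under most of the alternatives tried. With regions of at least 500 bp the members kept 1 common, 2 BIBR1532 and 0 vehicle regions, 1 member and 2 other pathway genes kept a common promoter region. Without the most frequent score of each list there were 3 BIBR1532 and 2 vehicle regions. Centres within 10 kb of the assigned start left 3 BIBR1532 regions, and centres within 1 kb of a RefSeq start, whatever gene was named, left 1 BIBR1532 and 1 vehicle region. With a centre within 1 kb in place of the promoter class 7 members and 13 other pathway genes had a common region, within 5 kb 7 and 15, and within 1 kb of a RefSeq start 7 members. Of 20 alternatives 5 moved the count by no more than 1.5 times. No paired analysis was possible because the lists pool the replicates of each condition, and for the same reason no replicate could be left out. The depth of the pools is unknown, so an absent region does not show an absence of TERT.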
